A study of Mus musculus with 37 samples.

Results

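Expression of 9 genes of serine, glycine and folate metabolism was followed through pregnancy in mammary glands of mice with and without PTP1B, the protein tyrosine phosphatase encoded by Ptpn1. The genes were Phgdh, Psat1, Psph, Shmt1, Shmt2, Mthfd2, Gldc, Amt and Folr1, enzymes or receptors of the pathway. They were chosen by name with earlier results of these data known. Each was read at the probe set annotated to that symbol alone, and each had 1 such probe set. They are 9 of 19937 genes with a probe set of their own on the array, and all 9 were among the 16865 genes bright enough to be tested.

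Serine is made from the glycolytic intermediate 3-phosphoglycerate by PHGDH, PSAT1 and PSPH in turn. SHMT1 in the cytosol and SHMT2 in mitochondria convert serine to glycine and pass its side-chain carbon to tetrahydrofolate, and the glycine cleavage system, with GLDC and AMT among its subunits, takes a further carbon from glycine in mitochondria. Folate-bound carbon units feed purine, thymidylate and methionine synthesis, and the pregnant mammary gland both multiplies its epithelium and begins to secrete milk, which carries folate together with a folate-binding protein derived from the folate receptor.

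The 37 arrays held total RNA of whole mammary glands of untreated FVB females. They were wild type (WT, PTP1B +/+, 18 arrays) or knockout (KO, PTP1B -/-, 19 arrays), the knockout having been crossed back onto FVB through 7 or more generations. The KO mice lacked PTP1B in the germline, so no cell type of the gland or the rest of the body was spared. Both genotypes were sampled as nulliparous females in oestrus (P0, taken on the vaginal plug after a night with a male) and at days 3, 7, 10 and 15 of pregnancy (P3, P7, P10 and P15), after mating at 12 weeks of age. In order of stage there were 4, 3, 4, 3 and 4 WT arrays and 4, 3, 5, 3 and 4 KO arrays. The labels do not say whether replicates came from separate animals, so p-values measure the spread between these arrays.

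Values are log2 intensities, a difference of 1 being a doubling on that scale, and a gene was called changed where limma gave a Benjamini-Hochberg adjusted p below 0.05 over all tested genes. Levels of different probe sets are not comparable with each other. Ptpn1 lay between 7.90 and 9.06 in the 18 WT arrays and between 5.36 and 6.49 in 18 of 19 KO arrays, while the array labelled KO day 15 replicate 3 read 8.68. Every KO P15 value below draws on that array. For each of the 9 genes a KO change to P15 is also given without it, as is the genotype difference of Psat1. The other genotype differences at P15 and the KO covariate fits are given only with it. Of 22 named pathway genes called in KO P15 against P0, 21 were also called without it, the exception being Ahcyl2. A further 6 arrays were held in doubt. The lymphocyte score was high in WT P7 replicate 1 and in KO P10 replicates 2 and 3, and the skeletal muscle score in KO P7 replicate 3, in WT P0 replicate 4 and in KO P3 replicate 1. Epithelial keratins and Epcam, fat markers and the milk protein gene Csn2 were bright in every group: Epcam averaged from 9.50 to 10.30, Adipoq from 11.13 to 12.52 and Csn2 from 11.47 to 13.48.

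Promoters were available for 8 of the 9 genes, as 9 windows of 250 bases before the start of a RefSeq transcript (GRCm38.p6). 4 are shown because the results turn on them. Gldc had the largest change in pregnancy, Psat1 was the only gene of the 9 that passed the test between genotypes, and Mthfd2 and Shmt2 varied with Psat1 from array to array. Each runs 5′ to 3′ on the transcript's strand, and capitals mark a match on either strand to CCAAT (reverse ATTGG), the letters of the CCAAT box bound by NF-Y, or, in Shmt2 alone, to TTCNNNGAA, the letters read by STAT factors, which are palindromic and so the same on both strands.
Gldc, chr19:30175442-30175691, minus strand: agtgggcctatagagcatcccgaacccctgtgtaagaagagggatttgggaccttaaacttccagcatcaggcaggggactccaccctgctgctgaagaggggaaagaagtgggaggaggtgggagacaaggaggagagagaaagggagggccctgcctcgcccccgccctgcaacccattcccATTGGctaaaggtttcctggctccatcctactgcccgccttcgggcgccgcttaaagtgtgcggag
Psat1, chr19:15925060-15925309, minus strand: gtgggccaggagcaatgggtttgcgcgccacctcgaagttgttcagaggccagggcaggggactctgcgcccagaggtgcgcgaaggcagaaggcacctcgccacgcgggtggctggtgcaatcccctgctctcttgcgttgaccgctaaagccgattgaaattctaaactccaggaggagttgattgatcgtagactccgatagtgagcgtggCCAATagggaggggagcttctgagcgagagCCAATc
Mthfd2, chr6:83317605-83317854, minus strand: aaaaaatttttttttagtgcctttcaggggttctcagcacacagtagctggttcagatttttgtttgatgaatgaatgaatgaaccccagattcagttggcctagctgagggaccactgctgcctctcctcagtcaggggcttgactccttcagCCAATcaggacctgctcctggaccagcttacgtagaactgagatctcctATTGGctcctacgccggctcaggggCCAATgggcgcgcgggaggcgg
Shmt2, chr10:127522445-127522694, minus strand: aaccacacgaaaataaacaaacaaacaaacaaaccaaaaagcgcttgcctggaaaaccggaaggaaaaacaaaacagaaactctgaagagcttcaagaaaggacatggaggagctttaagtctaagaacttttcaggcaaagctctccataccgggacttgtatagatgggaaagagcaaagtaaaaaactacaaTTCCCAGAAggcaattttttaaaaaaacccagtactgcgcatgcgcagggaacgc
CCAAT or ATTGG was present in 7 of the 9 windows, against 33.8% of 32851 windows of the same length before RefSeq transcripts of all genes. Mthfd2 held 3 such matches, Psat1, Phgdh and Psph 2 each, and Gldc, Amt and Shmt1 1 each, whereas Shmt2 and a downstream transcript start of Psat1 held none. TTCNNNGAA occurred in 1 of 9 windows, that of Shmt2, against 7.02% of all windows. TGATGNAA (reverse TTNCATCA), the composite element of ATF4 and C/EBP, was in 0 of 9 windows, against 3.45% of all. CCAAT shares no letters with the other motifs in the sequences shown, and a match describes letters in a window, not a bound site.

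The glycine cleavage genes Gldc and Amt and the folate receptor gene Folr1 had the largest rises of the 9 by late pregnancy, and of the serine synthesis genes Psph fell in WT while Phgdh and Psat1 moved less. By P15 in WT glands Gldc stood 17.2-fold, Folr1 5.25-fold and Amt 3.17-fold above P0, and Shmt1 and Shmt2 rose by 0.71 and 0.80 on the log2 scale. Phgdh and Psat1 rose by 0.36 and 0.49, close to the threshold, and Psph fell. In all, 7 of 9 genes rose, 1 fell and Mthfd2 was not called, where 48.8% of all tested genes were called (21.6% higher and 27.3% lower) and the median difference of the 9 was 0.71 against -0.06 for all tested genes. In KO glands 5 of 9 rose (Gldc, Folr1, Amt, Shmt1 and Phgdh) and 0 fell, with 41.3% of all genes called (19.5% higher and 21.8% lower), and the 9 had a median of 0.41 against 0.01. As the 9 were chosen with earlier results of these data known, these counts and medians do not test the pathway. Centring each array on its median lowered the median of all genes by 0.19 in WT and 0.14 in KO, so differences of that size depend on the scaling. It turned the split of all called genes in WT from 3641 higher and 4597 lower to 2230 and 8433, and further quantile normalisation turned it to 3097 and 7527. In KO, centring turned 3287 higher and 3675 lower into 2017 and 5530. After centring the calls of Phgdh and Psat1 ended in WT (log2 differences of 0.17 and 0.30), as did that of Phgdh in KO (0.28), and every other call of a gene of the 9 in both comparisons held.

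**Figure D1:**
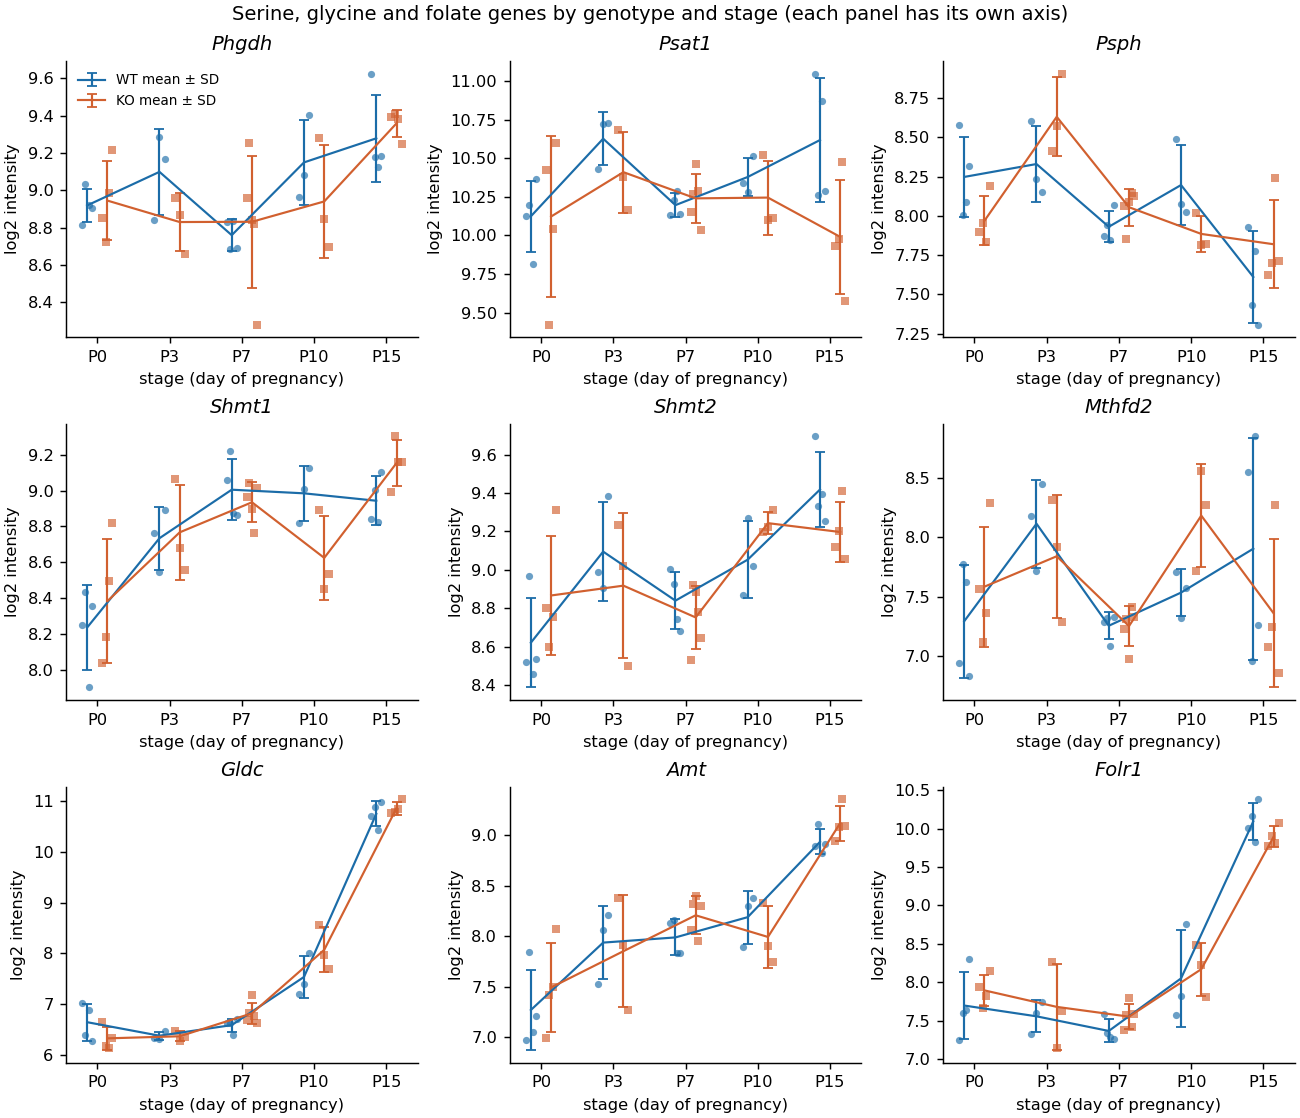
Log2 intensity (vertical axis, a separate scale for each gene) of the 9 genes in every array against stage, with WT as blue circles and KO as orange squares; lines join group means and bars are 1 SD over the 3 to 5 arrays of a group. Gldc and Folr1 are highest at P15 in both genotypes, while Psat1 and Mthfd2 have no common course and wide bars at P15.

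**Figure D2:**
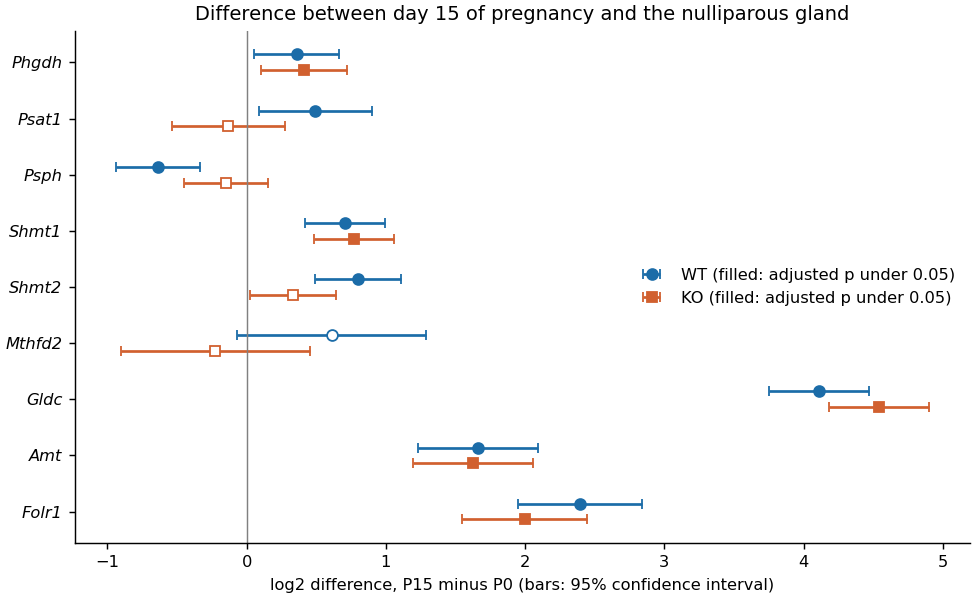
Log2 difference between P15 and P0 for each of the 9 genes, with its 95% confidence interval from limma; circles are WT and squares KO, and filled symbols have an adjusted p below 0.05. Gldc lies farthest right at 4.11 in WT and 4.54 in KO, and Psph in WT, at -0.64, is the one filled symbol left of 0.

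Of the serine synthesis genes, Phgdh, which encodes the first and committed enzyme, moved little. In WT its values were 8.82, 9.03, 8.92 and 8.91 at P0 and 9.63, 9.18, 9.13 and 9.19 at P15. The P15 arrays lay above every P0 array, with replicate 1 well above the rest. The difference was 0.36 (SE 0.15, limma adjusted p = 0.0478), and in 23 of the 37 fits that left out 1 array the adjusted p exceeded the threshold, reaching 0.197 without WT P15 replicate 1 (difference 0.24). In KO the values were 8.85, 8.72, 8.99 and 9.22 at P0 and 9.40, 9.41, 9.38 and 9.25 at P15, again without overlap. That difference was 0.41 (SE 0.15, limma adjusted p = 0.0265), and 0.41 (adjusted p = 0.0498) without the array labelled KO day 15 replicate 3. It was not called without KO P0 replicate 1 (0.38, adjusted p = 0.0677) or 2 (0.34, 0.0964), nor without KO P15 replicate 1 (0.40, 0.0553) or 2 (0.40, 0.0571). At P3, P7 and P10 Phgdh was not called in either genotype, with differences from P0 between -0.16 and 0.23. Another probe set is annotated to Phgdh and to Gm6756 together and was not used. Whether the probe set read here may also pick up Gm6756 was not tested.

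Psat1, the aminotransferase of the second step, had no steady course. Its WT values were 10.12, 10.20, 9.81 and 10.36 at P0, 10.43, 10.72 and 10.73 at P3, 10.13, 10.23, 10.29 and 10.14 at P7, 10.34, 10.28 and 10.51 at P10, and 11.05, 10.26, 10.87 and 10.29 at P15. At P15 replicates 1 and 3 were above all other WT arrays, while replicates 2 and 4 lay within the P0 range. The rise from P0 was 0.49 (SE 0.20, limma adjusted p = 0.0404). It was not called without WT P15 replicate 1 (0.35, adjusted p = 0.165) or 3 (0.41, 0.124), nor without WT P0 replicate 1 (0.49, 0.0677) or 3 (0.39, 0.139). In KO Psat1 read 10.42, 9.42, 10.04 and 10.60 at P0 and 9.93, 9.98, 10.48 and 9.58 at P15, with full overlap and a difference of -0.13 (adjusted p = 0.643), or -0.29 (0.269) without the array labelled KO day 15 replicate 3. An F test for any difference among the 5 stages was not passed by Psat1 in WT (adjusted p = 0.0833) or in KO (0.429).

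Psph, the phosphatase that releases serine in the last step, fell in WT. Its values were 8.58, 8.01, 8.09 and 8.32 at P0, 8.49, 8.07 and 8.02 at P10, and 7.93, 7.43, 7.78 and 7.31 at P15. All 4 P15 arrays were below every P0 and P10 array. The difference from P0 was -0.64 (SE 0.15, limma adjusted p = 0.000635) and that from P10 was -0.59 (adjusted p = 0.00417), the latter not called without WT P10 replicate 1 (-0.44, adjusted p = 0.0581). In KO, Psph was highest at P3, with 8.41, 8.57 and 8.91 against 7.90, 7.96, 7.83 and 8.19 at P0. That rise of 0.66 (adjusted p = 0.00436) was followed by 7.63, 7.70, 8.24 and 7.71 at P15, where the highest value is that of the array labelled KO day 15 replicate 3. KO P15 and P0 overlapped, with a difference of -0.15 (adjusted p = 0.455), or -0.29 (0.121) without that array.

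Shmt1, the cytosolic serine hydroxymethyltransferase, had a WT mean that rose through P3 to P7 and then levelled off. The step from P3 to P7 was not tested. It read 8.25, 8.43, 7.90 and 8.36 at P0, 8.76, 8.55 and 8.89 at P3, and 9.06, 9.22, 8.88 and 8.86 at P7. Later values were 8.82, 9.01 and 9.13 at P10 and 8.84, 9.005, 8.82 and 9.11 at P15. No later WT array overlapped P0. Against P0 the P3 difference was 0.50 (limma adjusted p = 0.0215), followed by 0.77 (0.000220), 0.75 (0.00128) and 0.71 (0.000115) at the later stages in order. The call at P3 ended without WT P0 replicate 3 (0.39, adjusted p = 0.0960), WT P3 replicate 1 (0.48, 0.0573) or WT P3 replicate 3 (0.42, 0.142). In KO the P0 values spread more widely, at 8.03, 8.18, 8.50 and 8.82, and the P15 values were 8.99, 9.30, 9.16 and 9.16. KO P15 lay above every KO P0 array, with a rise of 0.77 (adjusted p = 4.53e-05), and the rise at P7 was 0.55 (0.00444), whereas P3 (0.38, 0.0752) and P10 (0.24, 0.238) were not called. From P10 to P15 Shmt1 rose by 0.53 in KO (adjusted p = 0.00748), a call lost without KO P10 replicate 2 (0.44, adjusted p = 0.0547). Without the array labelled KO day 15 replicate 3 that step was 0.53 (0.0154) and the KO rise from P0 was 0.77 (0.000185).

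Shmt2, the mitochondrial hydroxymethyltransferase, read 8.52, 8.97, 8.46 and 8.54 in WT at P0 and 9.69, 9.33, 9.39 and 9.25 at P15. The P15 arrays were all higher, the second P0 array standing apart from the other 3. The rise was 0.80 (SE 0.15, limma adjusted p = 6.39e-05). At P3 it read 8.99, 8.91 and 9.39, and that rise of 0.47 (adjusted p = 0.0412) was not called without WT P0 replicate 1 (0.44, 0.0934), 3 (0.42, 0.112) or 4 (0.45, 0.0870), nor without WT P3 replicate 1 (0.53, 0.0533) or 3 (0.33, 0.287). KO values were 8.80, 8.597, 8.76 and 9.31 at P0 and 9.12, 9.20, 9.41 and 9.06 at P15. They overlapped through KO P0 replicate 4, and the difference of 0.33 was not called (adjusted p = 0.0806). Without that array it was (0.48, adjusted p = 0.0107), and without the array labelled KO day 15 replicate 3 it was 0.26 (0.219).

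Mthfd2, the mitochondrial dehydrogenase and cyclohydrolase that works on the folate-bound carbon, had the largest standard error of the 9 in these comparisons. In WT it read 6.94, 7.78, 7.62 and 6.83 at P0, 8.18, 7.71 and 8.45 at P3, 7.29, 7.32, 7.09 and 7.33 at P7, and 8.55, 6.96, 8.85 and 7.26 at P15. The P15 arrays fell into replicates 1 and 3, above every P0 array, and replicates 2 and 4, within the P0 range. The P15 difference of 0.61 had a 95% confidence interval from -0.07 to 1.29 (limma adjusted p = 0.130), and of the 37 fits without 1 array it was called in that without WT P15 replicate 2 (0.92, adjusted p = 0.0238). In KO Mthfd2 read 7.57, 7.12, 7.37 and 8.29 at P0, 7.71, 8.56 and 8.27 at P10, and 7.07, 7.25, 8.27 and 6.86 at P15. The array labelled KO day 15 replicate 3 was again the highest of its group. The difference between KO P15 and P10 was -0.82 (adjusted p = 0.0805), or -1.12 (0.0170) without that array and -1.06 (0.0431) without KO P10 replicate 1.

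Gldc encodes the glycine decarboxylase subunit of the glycine cleavage system, and its course was the steepest of the 9. In WT it read 7.02, 6.39, 6.89 and 6.27 at P0, 6.34, 6.32 and 6.47 at P3, 6.62, 6.62, 6.40 and 6.69 at P7, 7.20, 7.39 and 8.002 at P10, and 10.70, 10.88, 10.42 and 10.99 at P15. The P0, P3 and P7 arrays overlapped, the P10 arrays were above them all, and the P15 arrays were higher again with no overlap. The rise from P0 was 0.89 at P10 (SE 0.20, limma adjusted p = 0.00183) and 4.11 at P15 (95% confidence interval 3.75 to 4.47, adjusted p = 1.08e-16). The step from P10 to P15 alone was 3.22 (9.29-fold, adjusted p = 9.38e-13). KO values were 6.65, 6.17, 6.14 and 6.33 at P0, 6.47, 6.27 and 6.35 at P3, 6.69, 6.82, 7.17, 6.76 and 6.63 at P7, 8.56, 7.96 and 7.69 at P10, and 10.77, 10.79, 10.85 and 11.04 at P15. The order of stages was the same as in WT from P7 on, with P7 overlapping P0 only through its lowest array. The rise from P0 was 1.75 at P10 (adjusted p = 1.15e-07) and 4.54 at P15 (4.18 to 4.90, adjusted p = 6.03e-18), and 4.54 (2.55e-16) in the fit that omitted the array labelled KO day 15 replicate 3. A smaller KO rise at P7, 0.49 (adjusted p = 0.0403), was not called in 7 of the 37 fits without 1 array, reaching an adjusted p of 0.124 without KO P0 replicate 3 (0.43). The other 6 were without KO P0 replicates 2 (0.44, 0.107) and 4 (0.50, 0.0633) and KO P7 replicates 1 (0.52, 0.0520), 2 (0.49, 0.0602), 3 (0.41, 0.116) and 4 (0.51, 0.0507).

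Amt, the aminomethyltransferase of the same complex, climbed more evenly. Its WT values were 6.97, 7.85, 7.05 and 7.21 at P0, 7.53, 8.07 and 8.22 at P3, 8.13, 8.16, 7.84 and 7.83 at P7, 7.89, 8.30 and 8.38 at P10, and 8.90, 9.11, 8.82 and 8.91 at P15. P3, P7 and P10 overlapped each other, and P15 stood clear above every earlier array. Against P0 the P3 difference was 0.67 (limma adjusted p = 0.0402), followed by 0.72 (0.0118), 0.92 (0.00585) and 1.66 (1.57e-07) at the later stages in order. The P3 call ended without WT P0 replicate 1 (0.57, 0.116), 3 (0.59, 0.108) or 4 (0.65, 0.0758), or WT P3 replicate 2 (0.60, 0.117) or 3 (0.53, 0.224). KO values were 6.99, 7.42, 7.502 and 8.07 at P0, 8.07, 8.32, 8.40, 7.96 and 8.30 at P7, 8.33, 7.90 and 7.75 at P10, and 8.94, 9.08, 9.36 and 9.09 at P15. The P15 arrays were again above all others. KO Amt rose by 0.71 at P7 (adjusted p = 0.0133, but 0.55 and 0.0931 without KO P0 replicate 1) and by 1.63 at P15 (2.87e-07, and 1.55 with 3.14e-06 without the array labelled KO day 15 replicate 3). From P10 to P15 the step was 0.74 in WT (adjusted p = 0.0102, but 0.59 and 0.0818 without WT P10 replicate 1) and 1.13 in KO (0.000282, and 1.05 with 0.00151 without that array).

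The other subunits of the glycine cleavage system did not follow Gldc and Amt. In WT P15 against P0 the shared dihydrolipoamide dehydrogenase gene Dld fell by 0.81 (limma adjusted p = 0.00523) and Gcsh, the lipoyl carrier protein, fell by 0.57 (0.00361). In KO neither passed, at 0.01 (adjusted p = 0.974) and -0.28 (0.169), and the difference between genotypes at P15 was not called for any of the 4 subunits (smallest adjusted p 0.398). With the pan-epithelial marker score as a covariate Dld turned to 0.054 (adjusted p = 0.905) and Gcsh was -0.23 (0.449), so both WT calls ended.

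Folr1, the membrane folate receptor alpha, stayed low to P7 and rose between P10 and P15. WT values were 7.25, 7.599, 7.64 and 8.31 at P0, 7.34, 7.597 and 7.74 at P3, 7.59, 7.34, 7.29 and 7.26 at P7, 7.57, 7.82 and 8.76 at P10, and 10.01, 10.16, 9.82 and 10.38 at P15. All groups before P15 overlapped, and the lowest P15 array exceeded every earlier one. The rise was 2.39 from P0 (95% confidence interval 1.95 to 2.84, limma adjusted p = 4.23e-10) and 2.04 from P10 (1.35e-07). KO values were 7.94, 7.67, 7.83 and 8.14 at P0, 8.27, 7.15 and 7.63 at P3, 7.38, 7.58, 7.79, 7.42 and 7.59 at P7, 8.48, 8.23 and 7.80 at P10, and 9.77, 9.91, 9.81 and 10.08 at P15. KO P15 was again above every earlier array, and KO P10 lay just above KO P7 without overlap. The KO rise was 1.996 from P0 (adjusted p = 1.50e-08, and 2.02 with 1.01e-07 without the array labelled KO day 15 replicate 3) and 1.72 from P10 (2.38e-06, and 1.75 with 9.15e-06 in the fit without it).

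Counted over the remaining stage comparisons, 3 of 9 genes were called at P3 in WT, 2 at P7 and 3 at P10, all of them higher. Of all genes, 18.1% were called at P3 (11.6% higher, 6.50% lower), 29.3% at P7 (15.5% and 13.8%) and 21.4% at P10 (11.7% and 9.71%). In KO, 1 was called at P3, 3 at P7 and 1 at P10, again all higher. Of all genes, 18.8% were called at P3 (7.80% higher, 11.0% lower), 16.2% at P7 (7.84% and 8.34%) and 30.7% at P10 (14.4% and 16.3%). From P10 to P15, 3 rose and 1 fell in WT (39.6% of all genes called, 17.1% higher and 22.5% lower) and 5 rose in KO (32.1%, 16.2% and 16.0%). An F test for any difference among the stages was passed by 7 of 9 in WT (66.0% of all genes) and by 7 in KO (64.3%), the exceptions in both being Psat1 and Mthfd2. The KO step included Phgdh at 0.42 (limma adjusted p = 0.0476), which was not called in 23 of 37 fits without 1 array and had its lowest value without KO P10 replicate 3 (0.30, adjusted p = 0.262). It read 0.41 (0.0790) with omission of the array labelled KO day 15 replicate 3. Without the arrays in doubt, Phgdh, Shmt1 and Amt lost the KO call from P10 to P15, with 0.073, 0.26 and 0.71. All comparisons against P0 of a genotype share its P0 arrays.

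Epithelial and secretory markers moved with these rises. In WT P15 against P0, 14 of 20 pan-epithelial markers rose and 2 fell, 14 of 16 measured milk and secretory genes rose, all 11 measured white adipocyte markers fell and 11 of 17 cell cycle genes rose. In KO the counts were 13 higher and 2 lower of 20, 14 of 16 higher, 9 of 11 lower and 0 of 17 called. Among all genes 21.6% rose and 27.3% fell in WT, and 19.5% rose and 21.8% fell in KO. The pan-epithelial score, an average over the list after each gene was set to its own mean across the arrays, ranged from -0.98 to 0.30 in WT at P0 and from 0.44 to 0.63 at P15, and in KO from -0.44 to 0.20 and from 0.50 to 0.56. The milk score ranged from -1.55 to -0.21 in WT at P0 and from 1.17 to 1.56 at P15, and in KO from -0.998 to -0.064 and from 1.48 to 1.77. In whole glands more cells of a type and more RNA per cell cannot be told apart. The pan-epithelial ranges at P0 and P15 did not overlap in either genotype, so that covariate cannot be fully separated from stage. With the pan-epithelial score as a covariate, the WT rise at P15 was 4.14 for Gldc (limma adjusted p = 1.77e-12), 1.88 for Folr1 (9.32e-06) and 0.73 for Amt (0.00171), and the other 5 called genes were no longer called, at -0.29 for Psph, 0.28 for Shmt1, 0.40 for Shmt2, 0.43 for Psat1 and 0.13 for Phgdh. In KO the rises of Gldc (4.56), Folr1 (1.72), Amt (1.13) and Shmt1 (0.54) were still called and that of Phgdh (0.29, adjusted p = 0.174) was not. For the step from P10 to P15 the covariate ended the calls of Amt in both genotypes (0.15 in WT and 0.27 in KO), of Psph in WT (-0.36) and of Shmt1 (0.14) and Phgdh (0.21) in KO.

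Calls between genotypes among the 9 were too few to set apart from the share of all genes. KO and WT differed for 0 of 9 at P0 (1.70% of all genes called), P3 (0.119%), P7 (0.00593%) and P10 (17.2%) and for 1 at P15 (11.1%), and for 0 in the mean over the 5 stages (2.43%). At an unadjusted p below 0.05 the counts were 0, 0, 0, 2 and 1 from P0 to P15 and 0 for the mean. An F test across stages of the difference between genotypes called 0 of 9 (18.0% of all genes), with 2 at an unadjusted p below 0.05 and a smallest adjusted p of 0.0968 for Psph. Centring moved the split of all genes called at P10 from 1366 higher and 1539 lower in KO to 941 and 3954, and at P15 from 1143 and 730 to 2311 and 337.

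**Figure D3:**
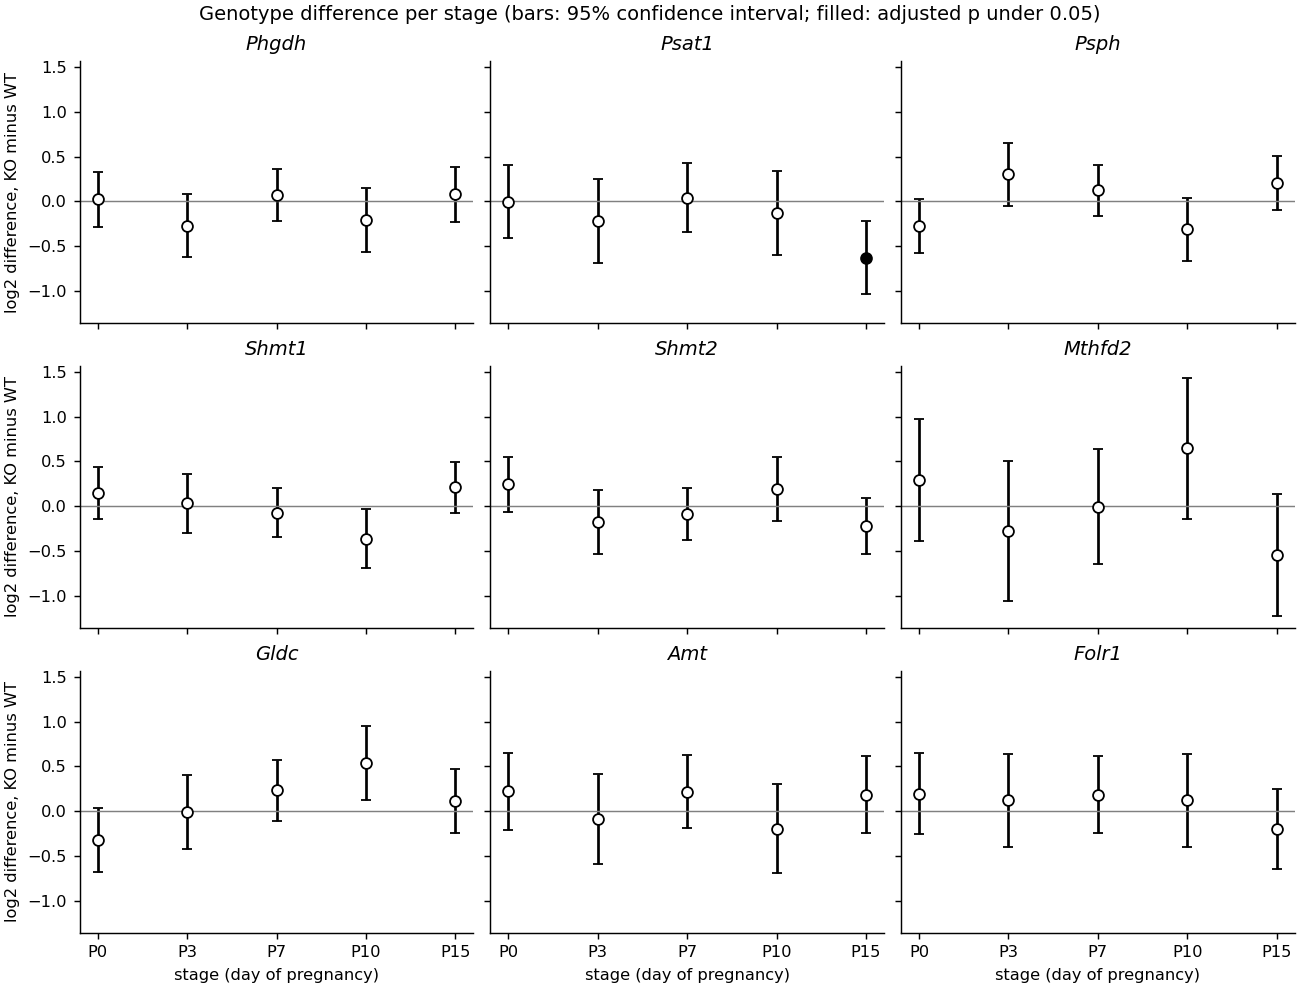
Log2 difference between KO and WT (vertical axis, the same scale in every panel) at each stage for the 9 genes, with its 95% confidence interval from limma; the filled point has an adjusted p below 0.05. Psat1 at P15, at -0.63, is the only filled point, and the intervals of Mthfd2 are the widest.

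At P15 Psat1 read 11.05, 10.26, 10.87 and 10.29 in WT and 9.93, 9.98, 10.48 and 9.58 in KO. The WT arrays were higher than every KO array except the one labelled KO day 15 replicate 3, which lay among them. Psat1 was lower in KO by a log2 difference of -0.63 (SE 0.20, 95% confidence interval -1.03 to -0.22, limma adjusted p = 0.0376), and by -0.79 (adjusted p = 0.0114) without the array labelled KO day 15 replicate 3. Its call ended without WT P15 replicate 1 (-0.48, adjusted p = 0.164) or 3 (-0.54, 0.123), and without KO P15 replicate 1 (-0.61, 0.0834), 2 (-0.62, 0.0801) or 4 (-0.49, 0.156). It also ended with median centring (-0.54, 0.0766) and in a fit of these groups alone (-0.63, 0.0771). At the 4 earlier stages the difference in Psat1 lay between -0.22 and 0.04.

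At P10 the largest difference in log2 terms was that of Mthfd2, 0.65 higher in KO with an interval from -0.14 to 1.43 (limma adjusted p = 0.261), and KO P10 replicates 2 and 3 had high lymphocyte scores. Gldc was 0.53 higher in KO at P10 (interval 0.12 to 0.95, adjusted p = 0.0663), with WT values of 7.20, 7.39 and 8.002 and KO values of 8.56, 7.96 and 7.69. These overlapped, and among fits without 1 array the difference was called in those without WT P10 replicate 3 (0.77, adjusted p = 0.0165) or KO P10 replicate 3 (0.72, 0.0416). Shmt1 was -0.36 (-0.69 to -0.03, adjusted p = 0.126), and it was called without KO P10 replicate 1 (-0.49, 0.0338) and after median centring (-0.50, 0.0260). For Folr1 the intervals of the genotype difference ran from -0.65 to 0.65 over the 5 stages, and for Amt from -0.69 to 0.65.

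**Figure D4:**
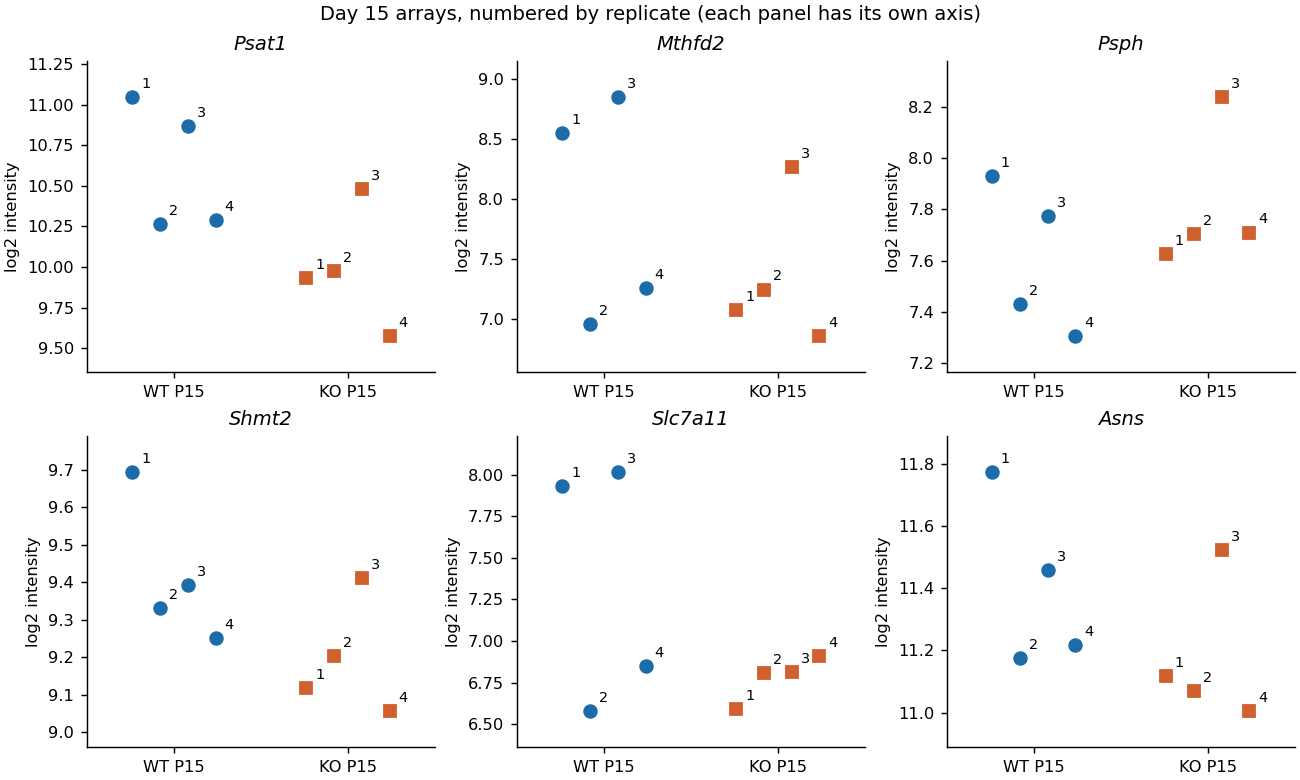
Log2 intensity (vertical axis, a separate scale for each gene) of Psat1, Mthfd2, Psph, Shmt2, Slc7a11 and Asns in the P15 arrays, numbered by replicate, with WT as circles and KO as squares. WT replicates 1 and 3 are above replicates 2 and 4 for all 6 genes, and the array labelled KO day 15 replicate 3 is the highest of its group for all but Slc7a11.

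The P15 arrays within a genotype split the same way for several genes. In WT, replicates 1 and 3 exceeded replicates 2 and 4 for Psat1, Mthfd2, Psph and Shmt2, and also for Slc7a11, the cystine transporter gene (7.93, 6.58, 8.02 and 6.85), and Asns, the asparagine synthetase gene (11.77, 11.18, 11.46 and 11.22), both targets of the amino acid stress factor ATF4 and picked after their values were seen. Slc7a5, Aldh18a1 and Trib3 of the same list had that order too. Ddit3 (6.91, 7.27, 6.85 and 7.35), Nupr1 (8.63, 9.34, 8.86 and 9.02) and Cebpb (7.58, 8.03, 7.46 and 7.88) ran the opposite way. Chac1 (8.004, 7.94, 7.71 and 7.73) and Atf4 (7.79, 7.85, 7.95 and 7.67) split otherwise. In KO the array labelled KO day 15 replicate 3 was highest for Psat1 (10.48), Mthfd2 (8.27), Psph (8.24), Shmt2 (9.41) and Asns (11.52), and Slc7a11 read 6.59, 6.81, 6.81 and 6.91. Gldc, Amt, Folr1 and Shmt1 had the opposite order in WT, with replicates 1 and 3 below replicates 2 and 4. The cell cycle score followed the same arrays, at 0.10, -0.28, 0.28 and -0.14 in WT and -0.20, -0.43, 0.18 and -0.55 in KO, and its part in the split was not tested.

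Deviations of the 37 arrays from their own group means showed how the 9 genes varied apart from stage and genotype. Amt varied with Shmt1 (Pearson r 0.75) and Shmt2 (0.71), while Psat1, Shmt2 and Mthfd2 varied together (0.61 for Psat1 and Shmt2, 0.60 for Shmt2 and Mthfd2, 0.56 for Psat1 and Mthfd2). Phgdh also varied with Psat1 (0.54) and Shmt1 with Shmt2 (0.53), so the genes did not fall into separate sets. The highest value of Gldc was 0.42, with Folr1. Across all 37 arrays Gldc and Folr1 had an r of 0.94, and 0.97 over the 10 group means, and in both the P15 groups stand apart. Over the same deviations Amt had an r of 0.84 with the pan-epithelial score and 0.81 with the cell cycle score, Shmt2 0.82 with the cell cycle score, Folr1 0.82 with the milk score, and Gldc -0.03 with the pan-epithelial and 0.20 with the milk score. With the cell cycle score r was 0.65 for Shmt1, 0.60 for Mthfd2, 0.52 for Psat1 and 0.39 for Phgdh. For Folr1 it was 0.27, for Gldc -0.12 and for Psph -0.17. These describe 37 arrays normalised together, and the part of cell content in them was not tested.

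The genes most like each of the 9, by Pearson r over the 10 group means, were taken as the 3 highest. For Gldc they were Rgs8 (0.99), Dnajc6 (0.99) and Fam160a2 (0.99), for Folr1 Atp2c2 (0.99), Slc30a2 (0.99) and Acsl4 (0.99), and for Amt Bcl9 (0.99), Atp7b (0.99) and Myo5c (0.98). Atp2c2 encodes a secretory pathway calcium pump, Slc30a2 a zinc exporter needed for zinc in milk and Atp7b a copper transporter. For Psph they were Aqp11, Gchfr and Spryd7 (0.98 for each), for Shmt1 Plxnb1 (0.96), Bcl7a (0.95) and Dact2 (0.95), and for Shmt2 Prpf4, Ankrd54 and Stambpl1 (0.96 for each). For Phgdh they were Cope (0.95), Tfe3 (0.95) and Wdr62 (0.94), for Mthfd2 Slx4ip (0.96), Lrrc14 (0.94) and Trmt112 (0.94), and for Psat1 Map3k7 (0.89), Adamts16 (0.88) and Drg1 (0.88), the lowest of all.

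The wider pathway was read from lists of genes that enclose the 9, at the same threshold and against the same background. Like the 9, the lists were chosen with earlier results of these data known. For P15 against P0 that background was 48.8% of all tested genes called in WT (21.6% higher and 27.3% lower). In KO it was 41.3% (19.5% higher and 21.8% lower). Of 8 tested genes of folate transport and retention, 2 rose and 3 fell in WT P15 against P0, and 1 rose and 4 fell in KO. Ggh, the gamma-glutamyl hydrolase that lets folate leave cells, fell by 1.09 in WT (limma adjusted p = 2.11e-08) and 0.96 in KO (2.68e-07), and Slc19a1, the reduced folate carrier, fell by 0.96 (2.16e-05) and 0.63 (0.00289). Fpgs, whose polyglutamate tails retain folate, rose by 0.69 (7.23e-05) and 0.61 (0.000412). Slc25a32, the mitochondrial folate carrier, fell by 0.74 in WT (0.00896) and was not called in KO (-0.35, 0.239). The WT calls of Slc19a1, Fpgs and Slc25a32 ended with the pan-epithelial score as a covariate, and that of Ggh did not.

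Among 8 tested enzymes of the folate cycle outside the 9, 1 rose and 2 fell in WT and 1 fell in KO. The share of all genes called was 48.8% in WT and 41.3% in KO. Aldh1l1, which oxidises formyl-folate in the cytosol, fell by 1.62 in WT (limma adjusted p = 1.19e-05) and 1.203 in KO (0.000593). With the pan-epithelial covariate these were -0.81 (0.0603) and -0.77 (0.0192), so the WT call ended. Ftcd fell by 0.23 in WT (0.0203), a call lost without WT P0 replicates 3 or 4 or WT P15 replicates 2 or 3 (-0.21, -0.20, -0.20 and -0.20). Tyms, the thymidylate synthase gene, rose by 0.79 in WT (0.0287) and read -0.03 in KO (0.958), its WT call ending without WT P0 replicates 1, 3 or 4 (0.72, 0.70 and 0.75) or WT P15 replicates 1 or 3 (0.72 and 0.65) and its difference turning to -0.082 (adjusted p = 0.900) with the pan-epithelial score as a covariate. Of 15 serine and glycine transporters, 3 rose and 6 fell in WT and 3 rose and 5 fell in KO. Slc1a4, a neutral amino acid exchanger that carries serine, rose by 1.15 in WT (1.74e-05) and 0.67 in KO (0.00685), and both calls ended with the pan-epithelial covariate (0.57 with 0.0732 and 0.36 with 0.142). Sfxn1, the mitochondrial serine carrier, fell by 1.28 (1.21e-06) and 0.94 (0.000112), Slc7a10 fell by 1.36 (3.40e-05) and 0.94 (0.00254), and Slc36a2 fell by 2.05 (7.61e-06) and 1.64 (0.000170), in the same order of genotypes. With that covariate the WT values were -0.73 for Sfxn1 (0.0121), -0.88 for Slc7a10 (0.0434) and -1.10 for Slc36a2 (0.0414). White adipocyte markers fell in the same comparisons, and their part was not tested.

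Of 20 tested genes that use serine or glycine, 3 rose and 8 fell in WT and 2 rose and 7 fell in KO. The share of all genes called was 48.8% in WT and 41.3% in KO. Gnmt, which methylates glycine, rose by 1.01 in WT (limma adjusted p = 3.45e-06) and 1.38 in KO (2.34e-08). Cbs, the entry to cysteine synthesis from serine, fell by 0.83 (2.06e-06) and 0.77 (7.22e-06). Alas1, the first enzyme of haem synthesis from glycine, fell by 0.81 (0.00341) and 0.79 (0.00479), both calls ending with the pan-epithelial covariate (-0.34 with 0.434 and -0.54 with 0.0743). Gclc, of glutathione synthesis, fell by 0.56 (7.93e-09) and 0.83 (6.36e-12). Of 10 methionine cycle genes, 2 rose and 3 fell in WT and 2 rose and 2 fell in KO. Nnmt, which spends methyl groups on nicotinamide, fell by 2.51 (1.11e-09) and 2.66 (4.70e-10), and Mat2b rose by 0.34 (0.000173) and 0.44 (6.82e-06), its WT call ending with median centring. Ahcyl2 fell by 0.64 (0.00115) and 0.42 (0.0296), the KO call ending without KO P0 replicate 1 (-0.36) or KO P15 replicates 2 (-0.42) or 4 (-0.42) or the array labelled KO day 15 replicate 3 (-0.40). The pan-epithelial covariate ended both of its calls (-0.28 with 0.329 and -0.23 with 0.279). Mat1a, of methionine adenosylation, rose by 0.33 in WT (0.0319), though not without WT P0 replicates 1 (0.28) or 3 (0.28) or WT P15 replicate 1 (0.21), and not with quantile normalisation (0.147, 0.317), median centring (0.143, 0.337) or the pan-epithelial covariate (0.127, 0.639). In KO it was not called (0.25, 0.112), but omission of the array labelled KO day 15 replicate 3 gave a call (0.34, 0.0463). Gclc was also the one gene of these lists named for the genotype mean over 5 stages, 0.12 higher in KO (adjusted p = 0.0242), though not without the arrays in doubt (0.13, 0.112) or with lymphocyte and muscle scores as covariates (0.12, 0.0699).

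Upstream of serine synthesis, 3 of 10 glycolytic genes rose and 5 fell in WT, and 4 rose and 2 fell in KO. The share of all genes called was 48.8% in WT and 41.3% in KO. Slc2a1, the glucose transporter GLUT1, rose by 1.47 in WT (limma adjusted p = 7.12e-10) and 0.70 in KO (0.000118), Aldoc rose by 1.51 (4.18e-07) and 0.84 (0.00120), and Pfkp fell by 1.16 (3.08e-07) and 0.90 (1.85e-05). With the pan-epithelial covariate Slc2a1 was 0.97 (9.82e-06) and 0.44 (0.00363), Aldoc 0.62 (0.00599) and 0.37 (0.0326), and Pfkp -0.74 (0.00356) in WT. Pfkm, the muscle phosphofructokinase gene, fell by 1.03 in WT (0.0448) and read 0.12 in KO (0.863). Its WT value was -0.40 (0.377) without WT P0 replicate 4, the array with the high muscle score, and the call also ended without WT P0 replicate 1 (-1.08) and without WT P15 replicates 1 to 4 in turn (-1.02, -1.08, -0.98 and -1.02). Of 17 purine, pyrimidine and thymidylate synthesis genes, 6 rose and 2 fell in WT, and 1 rose and 2 fell in KO. Ppat, the committed step of purine synthesis, rose by 0.84 in WT (6.03e-05) and read 0.10 in KO (0.679), and Prps2 rose by 0.88 (5.55e-05) against 0.26 (0.217), while Rrm2, a ribonucleotide reductase subunit that is also a cell cycle marker, rose by 1.51 (0.00512) against 0.0013 (0.998). Adssl1, a muscle isoform of adenylosuccinate synthase, fell by 1.75 in WT (0.00232) and was not called in KO (-0.68, 0.258), with a WT value of -1.12 (0.0246) without WT P0 replicate 4. These 4 WT calls ended with the pan-epithelial score as a covariate. Their values then were 0.45 for Ppat (0.0988), 0.38 for Prps2 (0.150), 0.086 for Rrm2 (0.924) and -1.37 for Adssl1 (0.123).

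At P15 the genotypes differed for 4 of these 17 purine, pyrimidine and thymidylate genes, all lower in KO, where 11.1% of all genes were called and 4.33% were lower. They were Ppat (-0.53, limma adjusted p = 0.0276), Umps, of pyrimidine synthesis (-0.46, 0.0411), Paics (-0.36, 0.00395) and Gmps (-0.29, 0.0397), named after their values were seen. All but Paics lost the call after median centring and in 5 or 6 of the 37 fits without 1 array. Those without WT P15 replicate 1 gave Ppat -0.46 (0.0955), Umps -0.41 (0.119) and Gmps -0.29 (0.0847), and those without KO P15 replicate 4 gave -0.46 (0.0962), -0.32 (0.197) and -0.24 (0.149). Without WT P15 replicate 3 they were -0.49 (0.0751), -0.37 (0.155) and -0.26 (0.123), and without KO P15 replicate 1 they were -0.48 (0.0843), -0.43 (0.0991) and -0.26 (0.120). Ppat and Gmps also lost it without KO P15 replicate 2 (-0.54, 0.0505, and -0.30, 0.0758), Umps without WT P15 replicate 4 (-0.49, 0.0614) and Gmps without WT P15 replicate 2 (-0.31, 0.0532). A fit of the P15 groups alone ended the calls of Umps (0.0976) and Gmps (0.0785), and the replicate block that of Umps (0.0574). Of the other lists, that of ATF4 aside, the only gene called between genotypes at P15 was Sptlc2, of serine and glycine use (-0.28, limma adjusted p = 0.0177). It was named after its values were seen. Its call ended after median centring (-0.19, 0.112) and in 3 of the 37 fits without 1 array.

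ATF4 drives serine synthesis genes when amino acids are short. Of 17 tested genes of the ATF4 and amino acid response, 6 rose and 7 fell in WT P15 against P0, and 7 rose and 3 fell in KO. The share of all genes called was 48.8% in WT and 41.3% in KO. The leucine transporter gene Slc7a5 rose by 2.59 in WT (limma adjusted p = 1.83e-10) and 1.12 in KO (0.000157), Slc7a11 by 2.06 (1.63e-06) and 1.40 (0.000341), and Aldh18a1, of proline synthesis, by 1.83 (7.91e-11) and 1.09 (9.70e-07). With the pan-epithelial covariate Slc7a5 was 1.68 in WT (8.13e-07) and 0.64 in KO (0.00367). Ddit4 fell by 1.54 (6.82e-06) and 1.46 (1.74e-05). Between genotypes at P15, 5 of 17 were higher in KO and 0 lower, where 6.78% of all genes were higher. Nupr1 read 8.63, 9.34, 8.86 and 9.02 in WT and 10.06, 10.04, 9.85 and 10.27 in KO. Every KO array was above every WT array, with a difference of 1.09 (adjusted p = 1.99e-05). Cebpb (0.63, 0.000608), Ddit3 (0.43, 0.0125), Atf4 itself (0.38, 0.00267) and Trib3 (0.35, 0.0111) were the others, all named after their values were seen. Nupr1, Cebpb and Atf4 kept the call in all 37 fits without 1 array. Ddit3 was not called without WT P15 replicate 1 (0.37, 0.0598) or 3 (0.35, 0.0669), nor Trib3 without KO P15 replicate 2 (0.31, 0.0505) or 4 (0.27, 0.0692). Trib3 also lost its call in a fit of the P15 groups alone (0.35, 0.0611). Psat1 was lower in KO at the same stage, and Phgdh (0.08), Psph (0.21), Shmt2 (-0.22) and Mthfd2 (-0.54) were not called between genotypes there. Those values include the array labelled KO day 15 replicate 3. Phgdh, Psph, Shmt2 and Mthfd2 were not called in any of the 37 fits without 1 array, including the fit without that one. Of the cell markers at P15, 8 of 12 fibroblast and matrix genes were lower and 4 of 11 white adipocyte genes higher in KO. Among all genes 4.33% were lower and 6.78% higher. The part of these markers in the differences was not tested.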

How the data were processed

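Total RNA of mouse mammary glands was hybridised to 1 array per sample, and the table deposited by the authors holds log2 intensity per probe set. The affy package is named per the submitters' processing notes. How background, summarisation and scaling were handled is not given in the sources used here. Array medians lay between 6.52 and 6.79, and 0 pairs of arrays of the same group were identical. Pairs across groups were not checked for this. Of 34760 probe sets, 21640 carried 1 symbol, 1321 several and 11799 none. The probe set with the highest mean stood for each gene.

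Genes above 4.96, the 25th percentile of all values, in at least 3 arrays were tested. limma 3.58.1 in R 4.3.3 (lmFit and eBayes) fitted 10 group means over all 37 arrays, and p-values were adjusted by Benjamini-Hochberg over all tested genes. The code was tested on simulated data. The number of arrays limits the precision. Members were named in full, and pathway genes were up to 4 per list, those called with the largest change in WT P15 against P0 or in the genotype mean. The 3 genes nearest each member by group means were also named. The members and lists were chosen with earlier results of these data known. Alternatives changed the filter, probe sets, scaling, array weights, variance model, covariates, samples and replicate block. The check of replicate numbers in the closing section did not detect pairing of samples, but it cannot exclude it. Sequences came from RefSeq on GRCm38.p6.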

Additional observations from a re-analysis of the deposited data

Results flagged for a closer look

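Dixon's test was run on 54 sets of values, each of 1 gene of the 9 in 1 group of 4 or 5 arrays. In these, 5 values stood apart from the rest of their set by a gap reached in about 1 of 20 sets by chance. The sets share arrays and so are not independent. Phgdh in WT P15 replicate 1 read 9.63, above the next array at 9.19. Phgdh in KO P15 replicate 4 read 9.25, below the next at 9.38. Psph in the array labelled KO day 15 replicate 3 read 8.24, above the next at 7.71. Shmt2 in WT P0 replicate 2 read 8.97, above the next at 8.54. Mthfd2 in WT P7 replicate 3 read 7.09, below the next at 7.29.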

How the results depend on the processing

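Of 36 called results of the 9 genes, 0 reversed under any alternative. Calls lost numbered 13 with the pan-epithelial score as a covariate, 9 each with median centring and without the arrays in doubt, 8 with only the groups compared, 5 with all probe sets, 4 with quantile normalisation, 3 each with lymphocyte and muscle scores and with the replicate block, 2 without the filter, 1 with array weights and 0 with a variance prior both trended and robust. Dld (0.054) and Tyms (-0.082) in WT P15 against P0 reversed with the pan-epithelial covariate. A second probe set could not be tried because each gene had 1. Few arrays per group limit small differences.

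The number of the 9 called in WT P3 against P0, 3, became 1 with all probe sets, 1 with quantile normalisation, 0 with centring, 1 with the replicate block, 1 without the arrays in doubt and 0 with the groups alone. WT P7, 2, became 4 with array weights, 1 with the epithelial score and 1 without the arrays in doubt. WT P10, 3, became 5 with lymphocyte and muscle scores and 1 with the groups alone. With the epithelial score WT P15, 8, became 3, WT P15 against P10, 4, became 2, and the WT F test, 7, became 4. KO P3, 1, became 3 with the epithelial score. KO P10, 1, became 3 with weights and 4 with the epithelial score. KO P15 against P10, 5, became 2 with the epithelial score, 2 with lymphocyte and muscle scores and 2 without the arrays in doubt. KO against WT at P10, 0, became 1 with centring and 4 with weights, and at P15, 1, became 0 with centring and 0 with the groups alone. The F test of the genotype difference, 0, became 2 with centring, 5 with weights and 1 without the arrays in doubt. The cause was not tested in any of these. Calls of all genes moved as well. With centring, WT P3 went from 1954 higher and 1096 lower to 1429 and 2123, and with quantile normalisation to 1576 and 1745. Centring took KO against WT at P10 from 1366 and 1539 to 941 and 3954. At P15 it took 1143 and 730 to 2311 and 337. Calls of all genes under the other settings are not given here, so the counts of the 9 cannot be set against them.

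Leaving out 1 array gave 0 to 1 for KO against WT at P10 and at P15 and for the genotype F test, 0 to 3 for WT P3, 2 to 3 for WT P7, 3 to 4 for WT P10, 6 to 8 for WT P15, 2 to 5 for WT P15 against P10, 1 to 2 for KO P3, 2 to 3 for KO P7, 1 to 4 for KO P10, 4 to 6 for KO P15 and 3 to 6 for KO P15 against P10. With the replicate block Amt (0.67, limma adjusted p = 0.0530) and Shmt2 (0.47, 0.0679) at WT P3 and Gldc at KO P7 (0.54, 0.0506) lost their calls. Deviations of 150 same-numbered pairs had a median r of -0.005 against 0.001 for other pairs, 40 pairs exceeded 0.1, and 12 of 37 arrays correlated best with their own number.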
